A study of Gossypium arboreum with 12 samples.

Results

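The transcripts described here fell at least 3-fold between flowering and fibre elongation in the ovules of a linted cotton line and of a lintless line, and stood at similar levels in both lines at each stage. They are 80 of 21791 probe sets (0.367%), a probe set being several short oligonucleotides on the array whose joint signal stands for the level of a transcript. The members were chosen on the group means of these arrays: a log2 change from 0 to 10 dpa (days post anthesis) of -1.585 or lower in each line, which is a fall of 3-fold or more, and a difference between the lines under 0.8 on the log2 scale at 0 and at 10 dpa. Both stage changes and both line differences were therefore used in the choice, and they are given below as a description with no test.

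The plants were diploid cotton, *Gossypium arboreum*. The fuzzy-linted line (*FL*) was the wild-type cultivar, which bears lint fibre, and the fuzzy-lintless line (*Fl*) was the mutant ANOI 1960, which forms fuzz but no lint. Both were grown in the field without any treatment, and RNA was taken from whole ovules of bolls collected at fibre initiation (0 dpa) or at fibre elongation (10 dpa). Each of the 4 groups had 3 biological replicates, each on an Affymetrix cotton array, 12 arrays in all. The lines were near isogenic but not perfectly so, and a difference between them cannot be told apart from a difference in genetic background. On 1 of the arrays, *FL* at 10 dpa replicate 1, the stage field of the labels reads 0 dpa while the title and source read 10 dpa, and it was grouped by the title.

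A lint fibre is a single cell that grows out of the epidermis of the outer integument of the ovule. Initials bulge from the surface around the day of anthesis, and elongating fibres later make up much of the RNA of a linted ovule. Under the epidermis, the ovule itself changes over the same days in linted and lintless plants: after fertilization the endosperm and embryo begin to grow, the integuments expand towards a seed coat, and the programmes of the flower come to an end. In a whole ovule, fewer cells of a type and less RNA per cell cannot be told apart.

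The deposited table carries probe set identifiers and no gene names, none of the 80 members is named in the tables used here, and no table pairing these identifiers with genes was used. The members are therefore given by identifier, with no role, and neither the 14 lists of functions and pathways nor the markers of ovule, fibre, green tissue, dividing cells and seed storage could be applied. The identifiers do name the design sequence. Ghi and GhiAffx come from *G. hirsutum*, Gra and GraAffx from *G. raimondii*, so that *G. arboreum* RNA was measured on probes of related species. Values are log2 levels relative to the median of each probe set over the 12 arrays. A brightness and a call of presence cannot be had from them, and the level of a transcript cannot be set against that of another.

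Across all probe sets, 202 fell at least 3-fold in *FL*, 235 in *Fl* and 96 in both, which is 47.5% of those falling in *FL* and 40.9% of those falling in *Fl*. Of these 96, 80 (83.3%) stayed within the limit on the line difference and 16 did not. Among the 16, 7 differed by 0.8 or more at 0 dpa and 10 at 10 dpa, with 1 counted at both stages. For transcripts that rose, 641 did so at least 3-fold in *FL*, 399 in *Fl* and 329 in both, and 239 of the 329 (72.6%) were within the same line limit.

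The transcripts that fell 3-fold in a single line were not alike in the other. All 106 that passed the limit in *FL* alone were also lower at 10 dpa in *Fl*, 72 of them at least 2-fold, with a median log2 change of -1.14 there. Of the 139 that passed in *Fl* alone, 75 were lower at 10 dpa in *FL* and 27 were so at least 2-fold, with a median log2 change of -0.14. The falls in *FL* alone were thus shared in direction by *Fl*, while many of the falls in *Fl* alone had no counterpart in *FL*. Over all probe sets the median change was -0.07 in *FL* and -0.01 in *Fl*, so more were lower than higher in each line. The share lower in each line was not computed, so the 75 of 139 cannot be set against it. All these counts describe the group means. The difference between the lists was neither tested nor repeated under another centring of the arrays.

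All 80 members were called in *FL* and in *Fl* by the fit over all probe sets (limma, adjusted p of 0.01 or less and a fold of 3 or more), against 0.927% of all probe sets called lower in *FL*, 1.08% in *Fl* and 0.441% in both. Every 10 dpa array was below every 0 dpa array for all 80 in each line, against 32.4% of all probe sets in *FL*, 29.2% in *Fl* and 21.0% in both. The rule used these contrasts, so nothing is read from the counts.

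The size of the fall ran from the 3-fold limit to more than 30-fold. In *FL* the log2 changes lay between -5.95 and -1.60 with a median of -2.39, and in *Fl* between -5.16 and -1.60 with a median of -2.12, while the medians over all probe sets were -0.07 and -0.01. A fall of at least 4-fold in both lines was seen for 40 members, of at least 8-fold for 12, of at least 16-fold for 4 and of at least 32-fold for 1. The distribution had no gap at the limit. The members nearest to it had a smaller fall of -1.600, -1.600 and -1.619, and the nearest probe sets outside it -1.569, -1.569 and -1.569. On the side of the line difference, the members nearest to the limit differed by 0.791, 0.740 and 0.738, and the nearest probe sets outside by 0.803, 0.831 and 0.835.

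GhiAffx.53545.1.S1_at had the largest fall of the 80. Its log2 level in *FL* was 2.59, 2.69 and 2.82 on the 3 arrays of 0 dpa and -3.41, -3.13 and -3.21 on those of 10 dpa. In *Fl* it was 2.69, 2.58 and 2.54 at 0 dpa and -2.57, -2.54 and -2.54 at 10 dpa. The stages were far apart in both lines. The lines overlapped at 0 dpa, and at 10 dpa all 3 *Fl* arrays were above all 3 *FL* arrays, by 0.70 on average. The fall was 61.7-fold in *FL* and 35.6-fold in *Fl*.

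Ghi.10550.1.S1_s_at stood at 2.17, 2.10 and 2.16 in *FL* and at 2.15, 2.25 and 2.18 in *Fl* at 0 dpa. At 10 dpa it stood at -2.62, -2.52 and -2.23 in *FL* and at -2.10, -2.45 and -2.11 in *Fl*. The lines overlapped at each stage, and the fall was 24.2-fold in *FL* and 21.3-fold in *Fl*. The third of the largest falls, GhiAffx.8806.1.S1_at, was larger in *Fl*. Its levels in *FL* were 2.09, 2.06 and 2.03 at 0 dpa and -2.12, -2.03 and -2.12 at 10 dpa. In *Fl* they were 2.38, 2.25 and 2.40 at 0 dpa and -2.31, -2.26 and -2.40 at 10 dpa. The *Fl* arrays began above those of *FL* and ended below them, without overlap at either stage, and the fall was 25.4-fold against 17.7-fold.

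Being alike was a limit on size and not an equality. The difference between the lines, *Fl* minus *FL*, ran from -0.79 to 0.56 at 0 dpa with a median of -0.02, and 39 of the members were higher in *Fl* and 41 lower. At 10 dpa it ran from -0.72 to 0.74 with a median of 0.17, and 53 were higher in *Fl* and 27 lower. As for the fall itself, 53 members fell more in *FL* and 27 more in *Fl*, with a median difference between the changes of -0.21. The counts are equal to those of the line difference at 10 dpa, but the members are not all the same. The 3 arrays of a line did not overlap with the 3 of the other for 36 members at 0 dpa, 19 with *Fl* higher and 17 with *Fl* lower, against 35.6%, 16.0% and 19.6% of all probe sets. At 10 dpa this was so for 49 members, 36 with *Fl* higher and 13 with *Fl* lower, against 43.2%, 24.0% and 19.2% of all probe sets. The line differences too were part of the rule, and nothing is read from these counts.

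By the direction of the line difference, 27 members were higher in *Fl* at both stages and 15 lower at both. Another 26 were lower in *Fl* at 0 dpa and higher at 10 dpa, and 12 ran the other way. The differences were under 0.25 at both stages for 21 members, and for 29 the 2 stage changes were within 0.25 of each other.

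Members at the ends of this range were picked after their values were seen. The most equal changes were those of Gra.1694.2.S1_s_at, which lay near the limit with a fall of 3.04-fold in *FL* and 3.03-fold in *Fl*. Its levels were 0.67, 1.01 and 0.73 in *FL* and 0.85, 0.99 and 0.80 in *Fl* at 0 dpa, and -0.87, -0.77 and -0.77 in *FL* and -0.74, -0.75 and -0.67 in *Fl* at 10 dpa. The lines overlapped at 0 dpa, and at 10 dpa all 3 *Fl* arrays were above all 3 *FL* arrays by a small margin.

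Gra.70.1.S1_s_at showed the largest excess of the fall in *FL*, 10.5-fold against 5.13-fold in *Fl*. It was at 1.54, 1.49 and 1.24 in *FL* and at 1.09, 1.01 and 1.19 in *Fl* at 0 dpa, and at -2.13, -2.20 and -1.57 in *FL* and -1.40, -1.38 and -1.01 in *Fl* at 10 dpa. *FL* was thus the higher line at 0 dpa and the lower line at 10 dpa, with no overlap. The largest excess in *Fl* was that of GhiAffx.44802.1.S1_at, 12.2-fold against 6.77-fold in *FL*. Its 0 dpa levels were 1.56, 1.44 and 1.20 in *FL* and 1.67, 1.68 and 1.68 in *Fl*, and its 10 dpa levels -1.29, -1.20 and -1.59 in *FL* and -1.83, -2.12 and -1.86 in *Fl*. Here *Fl* was the higher line at 0 dpa and the lower at 10 dpa.

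Ghi.4013.1.A1_at stood closest to the limit of 0.8, with *Fl* lower by 0.79 at 0 dpa. It was at 1.54, 1.52 and 1.16 in *FL* and at 0.57, 0.58 and 0.70 in *Fl* at 0 dpa. At 10 dpa the levels were -1.37, -0.57 and -0.80 in *FL* and -0.72, -1.36 and -1.34 in *Fl*, where the lines overlapped. Among the probe sets named here its replicates were also the widest apart at 10 dpa, with an SD of 0.41 in *FL* and 0.36 in *Fl* (n = 3 each).

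The spread between replicate arrays was not used by the rule. The median SD over the members was 0.11 in *FL* and 0.08 in *Fl* at 0 dpa, and 0.12 in *FL* and 0.10 in *Fl* at 10 dpa (n = 3 in each group). Over all probe sets it was 0.11, 0.08, 0.10 and 0.09 in the same order. Pooled over the groups, the SD of a member lay between 0.04 and 0.30, with a median of 0.124 against 0.123 over all probe sets. Within a single group the SD of a member reached 0.445, in *FL* at 0 dpa. The smallest fall was set by the rule, so its size beside these spreads is no support for the falls.

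Within the groups, the deviations of the members had no common direction on average. The mean correlation of their deviations from the group means was 0.008 over 3160 pairs of members, and 50.1% of the pairs were above 0. The pairs share the same 12 arrays, and the value is a description. A mean near 0 would also be had from sets of members moving in opposite directions. No value over all probe sets was computed to set beside it. Averaged over the 80 members, the level was 1.28, 1.22 and 1.22 on the *FL* arrays of 0 dpa and 1.20, 1.20 and 1.19 on those of *Fl*. At 10 dpa the average was -1.36, -1.34 and -1.37 in *FL* and -1.23, -1.23 and -1.24 in *Fl*. Arrays of a group were close to each other on this average, the widest range being that of *FL* at 0 dpa. On its replicate 1, 54 of the 80 members were above the group mean. The mean deviation on that array was 0.044 over the members and 0.016 over all probe sets. The share of all probe sets above the group mean was not computed, so nothing is read from the 54.

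The spiked hybridization controls, which should be equal on all arrays, were not. Over 27 control probe sets the mean log2 level was 0.41 ± 0.12 in *FL* and -0.24 ± 0.03 in *Fl* at 0 dpa, and 0.10 ± 0.16 in *FL* and -0.06 ± 0.05 in *Fl* at 10 dpa (SD, n = 3). They fell by 0.32 in *FL* and rose by 0.18 in *Fl* from 0 to 10 dpa, and were lower by 0.65 in *Fl* than in *FL* at 0 dpa and by 0.15 at 10 dpa. A shift of 0.65 is close to the limit that the rule set on the line difference. With each array centred on these controls, all 80 members were still lower at 10 dpa in both lines, with median changes of -2.08 in *FL* and -2.31 in *Fl*, while the median over all probe sets became 0.25 and -0.19. The fall was now larger in *Fl*, the opposite order to the deposited values. The rule then took 55 transcripts, of which 46 were among the 80. The controls shifted by less than the smallest fall that the rule allowed, so that no member could change direction, and this is no sign of stability. The choice of the transcripts counted as alike and the line with the larger median fall did depend on the centring. The 36 poly-A control probe sets, another kind of spiked control, shifted as well. Their mean was 0.106 ± 0.043 in *FL* and -0.296 ± 0.079 in *Fl* at 0 dpa (SD, n = 3). At 10 dpa it was -0.065 ± 0.135 in *FL* and 0.157 ± 0.079 in *Fl*. No centring on the poly-A controls was made.

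Actin and ubiquitin have 5′ and 3′ probe sets, whose difference in signal is a sign of RNA integrity. Each was centred on its own median over the arrays. Only shifts between arrays can therefore be read, and a value near 0 does not mean equal signal or intact RNA. The centred 5′ minus 3′ difference was -0.05 ± 0.09 and 0.01 ± 0.23 in *FL* at 0 and 10 dpa (SD, n = 3). In *Fl* it was 0.33 ± 0.06 and -0.09 ± 0.11. It moved between the stages in *Fl* and by less than the spread in *FL*. At 0 dpa it was also higher in *Fl* than in *FL*, without overlap between the arrays of the lines, while at 10 dpa the lines overlapped. Its part in the falls and in the line differences was not tested.

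The members were spread over 79 design clusters, a cluster being all probe sets that share the prefix and first number of the identifier. It can hold several transcripts, and probe sets of a cluster need not measure the same gene. GhiAffx probe sets made up 32 of the 80 (40.0% against 28.3% of all probe sets) and Ghi 38 (47.5% against 43.2%). Among the 341 that fell at least 3-fold in either line, GhiAffx made up 33.7% and Ghi 53.7%. Among the 239 that rose alike, these shares were 26.4% and 64.0%. There were 9 Gra probe sets (11.2% against 13.5%) and a single GraAffx probe set, 1.25% against 14.3% of all probe sets, 3.52% of the 341 that fell at least 3-fold in either line and 2.51% of the 239 that rose alike. Identifiers that end in _at without a further letter, which were made for a single transcript, were 47 of the 80 (58.8%), against 52.3% of all probe sets, 56.0% of these 341 and 24.3% of those that rose alike. The suffix _s, for probe sets that several related transcripts share, was carried by 28 (35.0%), against 39.5%, 36.1% and 65.7% in the same order. In both suffixes the members stood near the falling probe sets in general, which include them, and the difference from those that rose alike was not tested.

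A single cluster held 2 members, Ghi.6165.2.S1_x_at and Ghi.6165.3.S1_x_at, which stand among the 8 largest falls. The first fell 17.7-fold in *FL* and 18.9-fold in *Fl*, and the second 15.3-fold and 22.0-fold. On the 12 arrays the 2 probe sets differed by 0.002 to 0.488 on the log2 scale. The suffix _x marks probes that can take up other transcripts, so the 2 may count the same RNA and are not independent of each other. The other probe sets of this cluster fell far less, with log2 changes from -1.07 to -0.70 in *FL* and from -0.99 to -0.49 in *Fl*. Among them, that of the same orientation changed by -0.76 in *FL* and -0.49 in *Fl*.

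Probe sets of the same cluster that were not members had no part in the rule beyond failing it, and a further probe set that fell alike would itself have been a member. There were 23 of them in 18 clusters, leaving aside a cluster of 58 probe sets. Of the 23, 20 were lower at 10 dpa in both lines (87.0%, against 40.4% of all probe sets) and 3 were higher in both. Their falls were smaller: 3 were at least 2-fold in both lines (13.0% against 1.53%) and 1 at least 3-fold, with medians of -0.72 in *FL* and -0.49 in *Fl*. With the arrays centred on the hybridization controls, the median in *FL* was -0.40, while that over all probe sets went from -0.07 to 0.25. Between 17 of the 23 and their member the orientation of the design sequence was opposite, and 16 of these 17 were lower in both lines, with medians of -0.72 and -0.62. For the 6 of the same orientation the count was 4, with medians of -0.56 and -0.35. Probe sets of opposite orientation need not measure the transcript of the member. The 87.0% is therefore not a share of agreement between probes for the same transcript. The arrays are those of the rule, and no test was made.

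GhiAffx.21096.1.S1_at fell 14.9-fold in *FL* and 22.1-fold in *Fl*, and GhiAffx.21096.2.S1_a_at of the same cluster 7.25-fold and 11.6-fold. The latter was left out only by its line difference at 0 dpa, where it stood at 1.44, 1.31 and 1.15 in *FL* and at 2.17, 2.05 and 2.18 in *Fl*. At 10 dpa it stood at -1.58, -1.52 and -1.58 in *FL* and -1.71, -1.15 and -1.35 in *Fl*. The lines did not overlap at 0 dpa and overlapped at 10 dpa.

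Probe sets of a cluster could also move apart. Ghi.2039.3.S1_s_at fell 4.03-fold in *FL* and 3.72-fold in *Fl*, from 0.88, 0.71 and 0.75 to -1.22, -1.10 and -1.37 in *FL* and from 1.16, 1.04 and 1.01 to -0.71, -0.86 and -0.91 in *Fl*. Ghi.2039.1.S1_x_at of the same orientation rose 41.8-fold and 25.3-fold, from -2.73, -2.77 and -2.68 to 2.46, 2.70 and 2.83 in *FL* and from -2.56, -2.19 and -2.41 to 2.36, 2.19 and 2.26 in *Fl*. Each moved its own way in both lines, without overlap between the stages.

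The cluster of 58 probe sets, GhiAffx.1589, held 1 member. Of its other 57 probe sets, 21 were lower in both lines and 19 higher, with log2 changes between -1.55 and 7.76. The member, GhiAffx.1589.31.S1_at, fell 4.64-fold in *FL* and 5.57-fold in *Fl*, while GhiAffx.1589.45.S1_s_at rose 216-fold in *FL* and 140.0-fold in *Fl*. So large a cluster gives no common direction for its probe sets.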

How the data were processed

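Per the labels and methods, the authors hybridized biotinylated cRNA of 12 ovule samples to the Affymetrix cotton array and reduced the probe signals to a value per probe set by RMA (robust multi-array average) in GeneSpring GX 11.5. The deposited table holds log2 values for 21791 transcript and 98 control probe sets. The values of each probe set are centred on their median across the arrays, so that brightness and detection are unknown, and the number of arrays limits the precision. Groups were taken from the sample titles. Group means, changes and SDs were computed with pandas 2.3.3 and numpy 2.4.6. A fit of 4 group means in limma 3.58.1 (R 4.3.3), with Benjamini-Hochberg adjustment over all 21791 probe sets, gave the background shares. It was run on simulated data with independent noise, known falls and no shift between arrays, which does not test it under the shifts seen here. Named were the 3 members with the largest fall, by the smaller of the 2 changes, and others picked after their values were seen. The members and the lists were chosen with earlier results of these data known. Alternatives were quantile normalization of the centred values and another centring, threshold and average. Others were omission of each array, a replicate block and the unpaired test of the methods. Sequences of the probes were not used here.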

Additional observations from a re-analysis of the deposited data

How the results depend on the processing

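The count of 80 was set mainly by its limits. A 2-fold fall gave 291 transcripts and a 4-fold fall 40, and counting single-transcript probe sets alone gave 47. Line limits from 1.5-fold to none gave 61 to 96. Quantile normalization was applied to values already centred by probe set, so it does not repeat the normalization within RMA. It makes the distribution of the centred values equal on all arrays, and so acts on rises and falls themselves. It gave 103 (59 of the 80 among them). Centring on array medians gave 78 (78) and on the hybridization controls 55 (46). Leaving out each array gave 76 to 83, the lowest without *FL* 10 dpa replicate 1, and 66 of the 80 were kept under all 12 omissions. Transcripts called lower in *FL* were 202 (641 higher), 5198 without a fold threshold, 300 after quantile normalization (418 higher) and 105 on the controls (932 higher). In *Fl* they were 235 (399 higher), 3912, 362 (408 higher) and 324 (318 higher). Line calls at 0 dpa were 83, 2222 without the fold and 196 on the controls, 192 with *Fl* higher, against 69 of 83. At 10 dpa they were 270 (227 with *Fl* lower), and 4107 without the fold. Quantile normalization gave 193 at 10 dpa (136 with *Fl* lower) and centring on the controls 251 (186 with *Fl* lower). The replicate numbers did not pair the samples (correlations of deviations from -0.203 to 0.085), and the fit with the replicate block called 202 and 235 falls and 82 and 270 line differences. Without each array the falls were 195 to 211 in *FL* and 235 to 242 in *Fl*, and the line calls 79 to 90 and 258 to 287. The test of the methods called 197 and 234 falls and 58 and 230 line differences. The median change in *FL* of the 23 other probe sets of the clusters went from -0.72 to -0.40 on the controls, an alternative chosen after seeing the data. This centring shifts all probe sets alike, and the median over all of them in *FL* went from -0.07 to 0.25. Of 240 alternative changes of the named probe sets, 53 moved by over 1 SD. All 53 came from quantile normalization or control centring, under which most changes moved, and none from leaving out an array. GhiAffx.53545.1.S1_at in *FL*, for instance, went from -5.948 to -7.908 after quantile normalization. The sizes of the printed changes thus depend on the scaling. The changes were too large for these alternatives to turn their sign. The cause of these shifts was not tested.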
